A study of Musca domestica with 4 samples.

Results

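Of 6159 predicted house fly genes, 117 (1.9%) had an estimated count of exactly 0 in the susceptible strain aabys, in the susceptible strain CS or in both, while at least 1 of the 4 libraries gave the gene 30 counts or more. These genes were chosen on the counts themselves: 46 were at 0 in aabys only, 39 in CS only and 32 in both, and 4 further genes that meet the same rule are not reported here. The RNA was extracted from whole adult females of Musca domestica, 20 flies of 3 days of age per sample, and sequenced as pairs of 51 nt reads. The resistant strain ALHF, a multi-insecticide resistant line started from flies of an Alabama poultry farm and selected further with permethrin, gave 2 libraries (ALHF replicate 1 and ALHF replicate 2). The strain aabys, which carries 5 recessive visible markers, 1 on each autosome, gave 1 library. The strain CS, a wild-type laboratory line susceptible to insecticides, also gave 1 library. The comparison asks which genes of the ALHF transcriptome left no trace in one or the other susceptible strain. Because aabys and CS have 1 library each, the spread between samples of a strain was measured in ALHF alone, and differences between strains and differences between single samples cannot be told apart.

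Insecticide resistance in flies is known to involve changes in the protein that an insecticide binds and higher levels of enzymes that break insecticides down. Protein kinases and phosphatases add and remove phosphate groups on other proteins and belong to the signalling pathways that can alter the expression of many genes. The reference for all libraries was the set of coding sequences assembled from ALHF reads, so a count of 0 means that no read of a library was assigned to that ALHF sequence. Absence of the RNA, and assignment of the reads to another sequence because the strain differs from ALHF at that locus, cannot be told apart in these counts.

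The libraries summed to 10112769 estimated counts in ALHF replicate 1 and 5523826 in ALHF replicate 2, against 15085758 in aabys and 12440784 in CS. The susceptible libraries were thus the deeper ones. A count of 0 allows up to 3 counts in a library, and this floor of 3 counts per library was used wherever a fold over a strain at 0 was needed, which covers counting error only. Of the 6104 genes above 0 in any library 161 were at 0 in aabys or CS, and the susceptible libraries each had 5995 genes above 0. Of the 161 genes, 40 reached at most 29 counts and stayed outside the set. Markers of eye, muscle and antenna outside the set were above 0 in all 4 libraries.

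The set was detected mainly in ALHF, which the choice of genes favours. On normalized counts ALHF replicate 1 was the highest library for 58 genes, ALHF replicate 2 for 45, aabys for 5 and CS for 9. On raw counts, which follow library depth, the numbers were 65, 30, 9 and 13 in the same order. Both ALHF libraries reached 30 counts in 67 of the 117 genes. In ALHF replicate 1 the counts ran from 0 to 3584 with a median of 144, and in ALHF replicate 2 from 0 to 2946 with a median of 62. Per kilobase of coding length the set was less abundant in ALHF than other genes were: the median was 12.5 CPM (the count scaled to a common library size) per kb, against 30.6 CPM per kb in the 5987 other genes above 0. At the lower limit, ALHF_10786.g6010 was just inside with 32 and 9 counts in the ALHF libraries, 28 in aabys and 0 in CS. The nearest gene outside was ALHF_11126.g6183, with 12 and 23 counts in ALHF, 7 in aabys and 0 in CS. No gene at 0 in a susceptible strain had a highest count of 25 to 29.

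**Figure D1:**
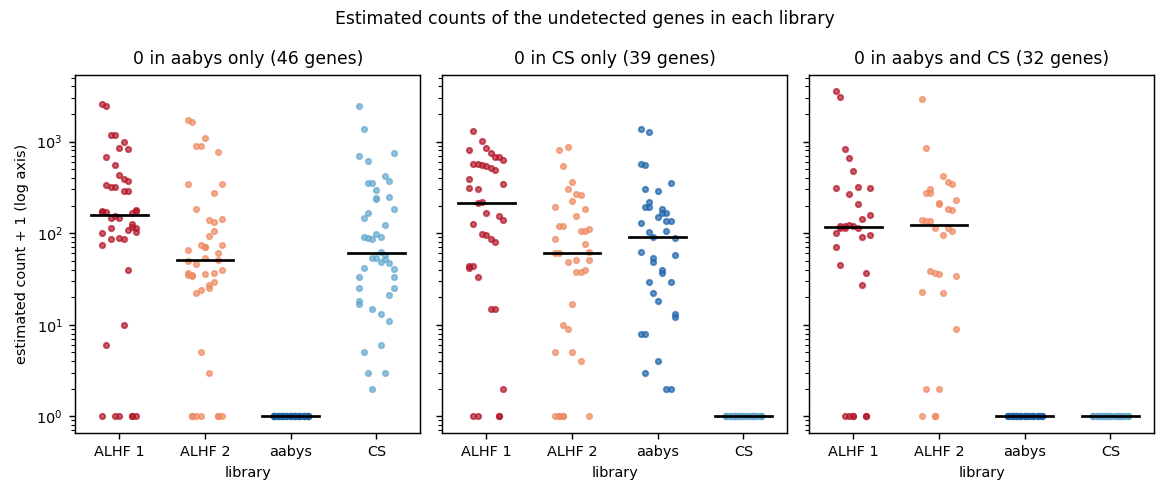
Estimated count plus 1 (log axis) of each of the 117 genes in each library, in 3 panels by the strain in which the gene was at 0. Points are genes and black lines are medians. The medians of the 46 genes at 0 in aabys only were 157.5 and 49.5 in ALHF and 59 in CS, and the rows of points at 1 are genes with no count, which occur in the ALHF libraries too.

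The 32 genes at 0 in both susceptible strains were led by 2 genes with their highest counts in ALHF replicate 1. ALHF_04601.g3073, a coding sequence of 549 nt with no named domain, had 3584 and 2946 counts in the ALHF libraries, against 0 in aabys and 0 in CS. On normalized counts its mean in ALHF was at least 2987-fold higher than aabys and at least 2790-fold higher than CS, and from 1 ALHF library at a time the bound over aabys ran from 2454 to 3524. It was also the most abundant gene of the set per length, at 963 CPM per kb in ALHF. ALHF_11502.g6433, a coding sequence of 12402 nt with a spectrin repeat, a fold found in proteins that crosslink actin filaments, had 3080 and 855 counts in ALHF, against 0 in aabys and 0 in CS. Its bound was 1565-fold over aabys and 1462-fold over CS, and leaving out ALHF replicate 1 lowered the bound over aabys to 1023, while its level per length was only a small part of that of ALHF_04601.g3073.

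The next genes at 0 in both strains had fewer counts and differed in which ALHF library was the higher one. ALHF_03878.g2468, with the C-terminal region of an enoyl-CoA hydratase, had 822 and 306 counts in ALHF. ALHF_02330.g1352, whose closest Drosophila protein is Minispindles, which promotes the growth of microtubules, had 472 and 205 counts. ALHF_11364.g6335, with a calcineurin-like phosphoesterase domain, had 312 and 227 counts. ALHF replicate 1 held more raw counts than ALHF replicate 2 in these 3 genes, but it was the deeper library, and on normalized counts the third had 37.8 and 48.0 CPM. ALHF_04264.g2790, with a La domain, an RNA-binding fold, had 317 and 423 counts. ALHF_11786.g6623, with no named domain, had 89 and 357 counts.

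A protein-tyrosine phosphatase, an enzyme that removes phosphate from tyrosine residues, was predicted in duplicate among these genes. ALHF_11768.g6612 and ALHF_11769.g6613 are both 915 nt long and had the same counts, 114 and 272 in ALHF, against 0 in aabys and 0 in CS, so reads shared between the copies cannot be assigned to either with certainty. The bound, which concerns reads assigned to this ALHF sequence only, was 202-fold over aabys and 188-fold over CS, and leaving out ALHF replicate 2 lowered it to 78.1-fold over aabys. ALHF_11768.g6612 is the only gene of the set for which the study designed qRT-PCR primers, which are shown because they give the part of the transcript that an independent assay reads, without any letters marked.
forward primer: tgtgcccagttcagctatg
reverse primer: gcccatgtatctcccaatgat
The primers are 19 and 21 nt long. The study reports this gene by qRT-PCR as a finite level in ALHF relative to aabys, lower than the bound from the counts. The bound concerns reads assigned to the whole ALHF sequence, whereas the primers cover a part of it. Why the values differ was not tested. A level relative to aabys requires a signal in aabys in that assay, so the bound is no lower limit for the transcript itself. The qRT-PCR values were not analysed here.

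Of the 32 genes, 9 were seen in 1 of the 4 libraries only. ALHF_11278.g6270, with a protein kinase domain, had 665 counts in ALHF replicate 1 and 0 in ALHF replicate 2, aabys and CS. ALHF_11169.g6212, with a domain of the neprilysin family of metallopeptidases, had 308 counts in ALHF replicate 1 and 0 elsewhere. ALHF_11517.g6442 had 121 counts there and 0 elsewhere. In the other direction, ALHF_11210.g6233 had 344 counts in ALHF replicate 2 alone, ALHF_04758.g3203 had 210 and ALHF_11097.g6164 had 179, none with a named domain. ALHF_12620.g6775, ALHF_05030.g3423 and ALHF_10740.g5987 had 38, 36 and 35 counts in ALHF replicate 2 alone. For these 9 genes 1 ALHF library was at 0 as were aabys and CS.

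The other 14 genes at 0 in both strains had highest counts from 44 to 267. They included a cyclic nucleotide phosphodiesterase, an enzyme that breaks down cyclic nucleotide messengers (ALHF_09987.g5752, 267 and 112 counts in ALHF), and a glycosyl hydrolase (ALHF_11242.g6250, 157 and 33). A second predicted duplicate held a mitochondrial carrier, a family that moves metabolites across the inner mitochondrial membrane. ALHF_03742.g2359 and ALHF_04653.g3114, both 1023 nt, had 120 and 134 counts in ALHF, against 0 in aabys and 0 in CS. The 8130 nt coding sequences next to them, ALHF_03742.g2360 on the same contig and ALHF_04652.g3112, were also alike, with 147 and 12 counts in ALHF, 464 in aabys and 100 in CS. The carrier was thus at 0 in strains in which the neighbouring sequence was counted.

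**Figure D2:**
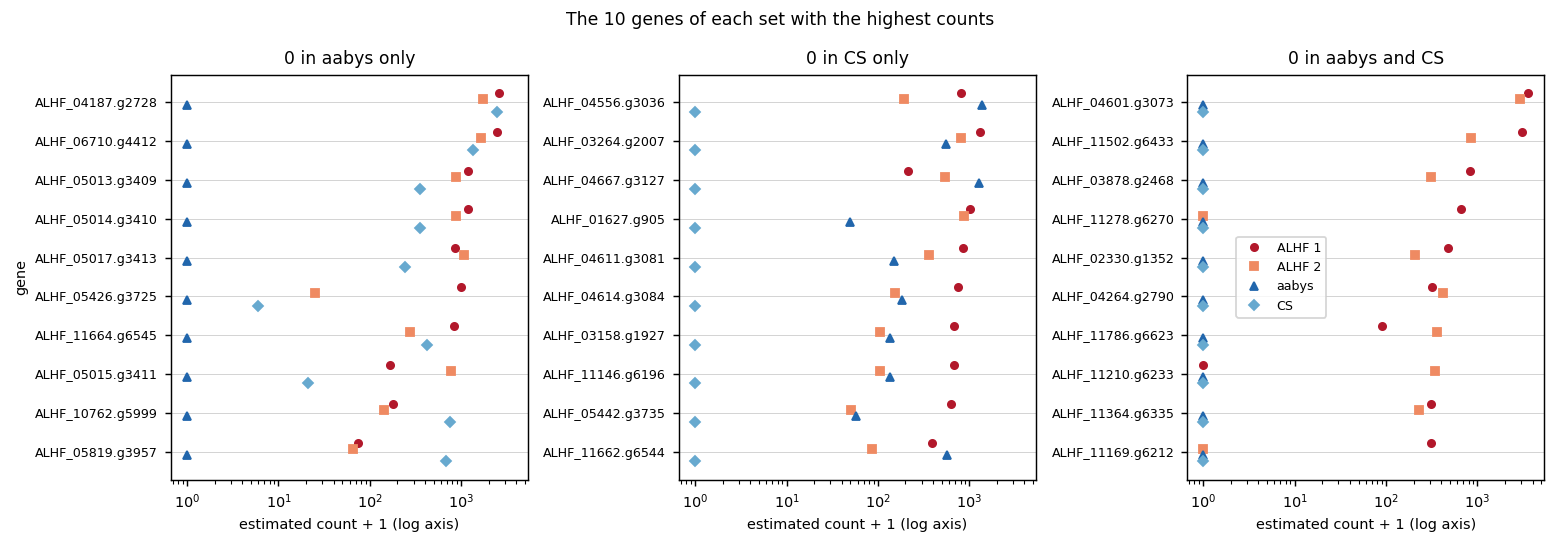
Estimated count plus 1 (log axis) in the 4 libraries for the 10 genes of each set with the highest counts, from the highest at the top. Symbols mark the libraries. Both ALHF libraries were above 0 in 7 of the 10 genes at 0 in aabys and CS, and some genes at 0 in 1 susceptible strain had their highest count in the other, such as ALHF_05819.g3957 with 687 counts in CS.

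Among the 46 genes at 0 in aabys only, 2 protein kinase genes stood first, and both were counted in CS as in ALHF. ALHF_04187.g2728 had 2589 and 1741 counts in ALHF, 0 in aabys and 2441 in CS. ALHF_06710.g4412 had 2437 and 1628 counts in ALHF, 0 in aabys and 1356 in CS. The aabys library was the deepest of the 4, and at the mean ALHF level it would have held 5780 and 5421 counts of these genes. The bounds were 1927-fold and 1807-fold over aabys. Against CS, which the choice of these genes did not use as the strain at 0, edgeR's quasi-likelihood test gave log2 ratios of 1.14 ± 0.46 (SE, adjusted p = 0.139) and 1.90 ± 0.48 (SE, adjusted p = 0.0736), so neither passed the threshold. A further kinase, ALHF_02459.g1431, had 87 and 52 counts in ALHF, 0 in aabys and 298 in CS.

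A run of neighbouring contigs contributed 6 of the 46 genes. Contigs 5011 to 5017 each carry 1 predicted gene of 4785 to 5817 nt with no named domain. ALHF_05013.g3409 and ALHF_05014.g3410, of equal length and equal counts, had 1168 and 884 counts in ALHF, 0 in aabys and 350 in CS. ALHF_05017.g3413 had 841 and 1080 counts in ALHF, 0 in aabys and 238 in CS. ALHF_05015.g3411 had 163 and 770 counts in ALHF, 0 in aabys and 20 in CS. On normalized counts ALHF replicate 2 was the higher ALHF library in each of these genes, with 102 and 228 CPM for ALHF_05017.g3413 and 19.7 and 163 CPM for ALHF_05015.g3411. ALHF_05011.g3407 and ALHF_05012.g3408, again alike in length and counts, had 172 and 341 counts in ALHF, 0 in aabys and 24 in CS, which is 20.8 and 72.1 CPM in ALHF. The remaining gene of the run, ALHF_05016.g3412, was at 0 in every library, and the genes on either side, ALHF_05010.g3406 and ALHF_05018.g3414, had 13537 and 868 counts in aabys. In the ALHF to CS comparison ALHF_05013.g3409 had a log2 ratio of 2.89 ± 0.54 (SE, adjusted p = 0.0629), by edgeR's quasi-likelihood test the smallest adjusted p of any gene in that comparison, shared with many others. The Wald test of DESeq2 called it (adjusted p = 6.79e-05).

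Other genes at 0 in aabys only were spread over enzymes, adhesion proteins and transporters. ALHF_05426.g3725, a short chain dehydrogenase, had 995 and 24 counts in ALHF, 0 in aabys and 5 in CS, and its bound over aabys went down to 28.7 without ALHF replicate 1. ALHF_11664.g6545, with a calponin homology domain that binds actin, had 823 and 274 counts in ALHF, 0 in aabys and 424 in CS. ALHF_02806.g1663, a mitochondrial carrier, had 322 and 183 counts in ALHF, 0 in aabys and 87 in CS. These 3 genes were present in every library but that of aabys, the first of them barely in CS. Both genes with a fasciclin domain, which mediates cell adhesion, lay on adjacent contigs: ALHF_04732.g3178 had 288 and 105 counts in ALHF, 0 in aabys and 121 in CS, and ALHF_04731.g3177 had 152 and 23 in ALHF, 0 in aabys and 14 in CS. ALHF_11496.g6427, with an EGF-like domain, had 685 and 0 counts in ALHF, 0 in aabys and 41 in CS.

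In 9 of the genes at 0 in aabys the CS library held the highest normalized count. ALHF_10762.g5999 had 180 and 142 counts in ALHF, 0 in aabys and 745 in CS. ALHF_05819.g3957 had 73 and 65 counts in ALHF, 0 in aabys and 687 in CS. ALHF_02995.g1806, related to the Drosophila serine hydrolase kraken, had 146 and 45 counts in ALHF, 0 in aabys and 614 in CS. On normalized counts both ALHF libraries lay below CS in 9 of the 46 genes (19.6%), against 43.8% of all 6104 genes above 0. Both lay above CS in 26 (56.5%), against 45.1% of all genes. Only 33 of the 46 genes reached 30 counts in CS itself, so the choice through ALHF fixes part of these shares. In all, 3 genes had no count in any library but CS: ALHF_03265.g2008 (6726 nt, 245 counts), ALHF_11535.g6457 (46 counts) and ALHF_10484.g5902 (40 counts).

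The 39 genes at 0 in CS only included genes of the actin cytoskeleton and of muscle. ALHF_03264.g2007, a coding sequence of 8694 nt with a gelsolin repeat, a fold of proteins that sever and cap actin filaments, had 1298 and 802 counts in ALHF, 560 in aabys and 0 in CS. Its bound was 863-fold over CS. The gene on the next contig, ALHF_03265.g2008, had the opposite pattern, with 0 and 0 counts in ALHF, 0 in aabys and 245 in CS. The 2 coding lengths (8694 and 6726 nt) differ by more than 5%. On the contig before, ALHF_03263.g2006 (9399 nt) had 1135 and 468 counts in ALHF and 2796 in aabys. CS had more raw counts of this neighbour than either ALHF library, but it was the deeper library. The length of this neighbour too differs by more than 5% from 8694 nt. Whether CS reads of the gelsolin gene were assigned to either neighbour was not tested. ALHF_01627.g905, annotated as troponin I (wupA in Drosophila), which holds muscle contraction in check at low calcium, had 1026 and 865 counts in ALHF, 48 in aabys and 0 in CS. Its bound was 811-fold over CS, and its log2 ratio of ALHF to aabys was 5.76 ± 0.68 (SE) with an adjusted p of 0.156 by edgeR's quasi-likelihood test and of 8.67e-15 by DESeq2.

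Muscle markers outside the set were also higher in ALHF. The 6 other genes annotated as bt, TpnC25D, TpnC47D and wupA were above 0 in all 4 libraries, and all 6 were higher in both ALHF libraries than in aabys and than in CS. Their summed normalized count was 8851 and 6802 CPM in ALHF, against 1149 CPM in aabys and 364 CPM in CS. In ALHF most of this sum came from the 3 wupA genes and most of the rest from bt. Because ALHF_01627.g905 of the set is annotated as wupA too, the sum is not a readout separate from that gene. The part that the muscle markers have in the counts of the troponin and gelsolin genes was not tested, and in RNA of whole flies fewer muscle cells and less RNA per cell cannot be told apart. The 3 wupA genes outside the set had 13627 and 7989 counts in ALHF, 1060 in aabys and 55 in CS for ALHF_01625.g903, 30743 and 13263 in ALHF, 6038 in aabys and 1747 in CS for ALHF_01626.g904, and 2726 and 1892 in ALHF, 654 in aabys and 60 in CS for ALHF_01628.g906. CS was the lowest library in each. The eye markers ninaE and Rh6 were also higher in ALHF in sum (2321 and 2655 CPM, against 1100 CPM in aabys and 745 CPM in CS), whereas Obp56a of the antenna was not (190 and 271 CPM, against 516 CPM in aabys and 295 CPM in CS).

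Kinases also stood among the genes at 0 in CS. ALHF_04611.g3081 had 847 and 359 counts in ALHF, 149 in aabys and 0 in CS. ALHF_04614.g3084, 3 contig numbers on, had 751 and 152 counts in ALHF, 184 in aabys and 0 in CS. ALHF_11684.g6556 had 538 and 222 counts in ALHF, 289 in aabys and 0 in CS. All 3 had a lower normalized count in aabys than in either ALHF library, the second with 91.0 and 32.1 CPM in ALHF, against 10.9 CPM in aabys. The log2 ratio of ALHF to aabys of ALHF_04611.g3081 was 3.34 ± 0.56 (SE, adjusted p = 0.189 by edgeR's quasi-likelihood test).

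The 4 genes of the set with an IBR domain, a zinc-binding fold of ubiquitin ligases, were all at 0 in CS only and formed 2 duplicated pairs. ALHF_03158.g1927 and ALHF_11146.g6196 (8919 nt) had 682 and 105 counts in ALHF, 134 in aabys and 0 in CS. ALHF_03159.g1928 and ALHF_11147.g6197 (8730 nt) had 569 and 118 counts in ALHF, 193 in aabys and 0 in CS. The other 4 genes annotated with this domain were detected in CS. ALHF_10588.g5937 (9099 nt) had 1516 and 462 counts in ALHF, 288 in aabys and 469 in CS. ALHF_10589.g5938 (8910 nt) had 1290 and 534 counts in ALHF, 420 in aabys and 176 in CS. ALHF_11148.g6198 and ALHF_11149.g6199 (5628 nt) had 292 and 163 counts in ALHF, 87 in aabys and 39 in CS. Of the 8 annotated IBR genes 4 were therefore in the set, and the first 2 of the others, of lengths near those of the duplicated pairs, were counted in CS.

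Some genes at 0 in CS had their highest raw count in aabys, the deepest library. ALHF_04556.g3036 had 816 and 191 counts in ALHF, 1372 in aabys and 0 in CS. ALHF_04667.g3127 had 214 and 538 counts in ALHF, 1280 in aabys and 0 in CS. ALHF_11662.g6544 had 385 and 86 counts in ALHF, 570 in aabys and 0 in CS. On normalized counts an ALHF library was the highest for each of them, as for ALHF_04667.g3127 with 25.9 and 114 CPM in ALHF, against 75.5 CPM in aabys. The log2 ratios of ALHF to aabys of these 3 genes lay between -0.21 and -0.05. Detected in aabys alone were ALHF_03984.g2557 (304 counts) and ALHF_04539.g3022 (103 counts). ALHF_05442.g3735 stood at the other end, with 628 and 50 counts in ALHF, 57 in aabys and 0 in CS. Also at 0 in CS were 2 genes with a chitin-binding Peritrophin-A domain, found in the lining of the insect gut: ALHF_10203.g5825 had 341 and 109 counts in ALHF, 88 in aabys and 0 in CS, and ALHF_04643.g3106 had 167 and 16 in ALHF, 17 in aabys and 0 in CS.

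The strain in which a gene was not at 0 gives a comparison that the choice of genes did not use directly, but a gene that reached 30 counts in ALHF alone had to be higher there. Shares over the 33 of the 46 genes at 0 in aabys only that reached 30 counts in CS itself are therefore set beside the 5663 genes of the table that did so. All 117 genes passed the filter on low counts, as did 6070 of the 6159. By edgeR's quasi-likelihood test at an adjusted p under 0.05, 0 of the 33 genes were higher in ALHF than in CS and 0 lower, against 0.0% of the genes in each direction. At an unadjusted p under 0.05 there were 9 higher (27.3%, against 21.8%) and 3 lower (9.09%, against 19.2%). DESeq2 at an adjusted p under 0.05 called 6 higher (18.2%, against 19.5%) and 1 lower (3.03%, against 11.8%), so its share of higher calls was near the background. The 6 include ALHF_05013.g3409, ALHF_05014.g3410 and ALHF_05017.g3413 from the run of neighbouring contigs, and the first 2 of these have identical counts. The median log2 ratio of ALHF to CS over the 33 genes was 1.16, against -0.08 over the 5663 genes.

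Over all 46 genes the shares include those fixed by the choice through ALHF and support nothing on their direction. The quasi-likelihood test called 0 higher and 0 lower (against 0.0% of all genes each), and at an unadjusted p under 0.05 gave 19 higher (41.3%, against 24.3%) and 3 lower (6.52%, against 17.9%). DESeq2 called 15 higher (32.6%, against 22.1%) and 1 lower (2.17%, against 11.0%), and limma called 0 higher (against 0.28%) and 0 lower (against 0.0%). With DESeq2 size factors the quasi-likelihood test called 9 higher (19.6%, against 10.6%) and 1 lower (2.17%, against 6.16%). The gene that both called lower was ALHF_03265.g2008, with 0 counts in both ALHF libraries and 245 in CS. Without a test, 33 were at least 2-fold higher in ALHF (71.7%, against 37.6%) and 6 at least 2-fold lower (13.0%, against 26.3%). The median log2 ratio of ALHF to CS was 1.90 over the 46 genes, with 34 above 0 and 12 below, and 0.10 over all 6104 genes above 0.

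Of the 39 genes at 0 in CS only, 27 reached 30 counts in aabys, as did 5842 genes of the table. Among the 27 genes edgeR's quasi-likelihood test called 0 higher in ALHF than in aabys and 0 lower, against 0.0% of the genes in each direction, and at an unadjusted p under 0.05 gave 9 higher (33.3%, against 9.77%) and 2 lower (7.41%, against 6.44%). DESeq2 called 10 higher (37.0%, against 6.68%) and 1 lower (3.7%, against 2.19%), the gene called lower being ALHF_03984.g2557. The 10 include ALHF_03158.g1927 and ALHF_11146.g6196, which have identical counts. The median log2 ratio of ALHF to aabys over the 27 genes was 2.04, against -0.06 over the 5842 genes.

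Over all 39 genes, where the choice through ALHF again fixes part of the shares, the quasi-likelihood test called 0 higher and 0 lower (against 0.0% each) and limma 0 in either direction (against 0.0% each). At an unadjusted p under 0.05 there were 12 higher (30.8%, against 11.3%) and 2 lower (5.13%, against 6.19%). DESeq2 called 11 higher (28.2%, against 8.09%) and 1 lower (2.56%, against 2.11%). With DESeq2 size factors the quasi-likelihood test called 0 higher (against 0.478%) and 0 lower (against 0.0494%). On normalized counts both ALHF libraries lay above aabys in 24 genes (61.5%, against 38.3%) and below it in 5 (12.8%, against 41.5%). Without a test, 28 were at least 2-fold higher in ALHF (71.8%, against 23.8%) and 5 at least 2-fold lower (12.8%, against 13.6%). The median log2 ratio of ALHF to aabys was 2.62, with 30 genes above 0 and 9 below, against -0.01 over all 6104 genes. Leaving out ALHF replicate 1 gave 1.49, and leaving out ALHF replicate 2 gave 2.59.

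**Figure D3:**
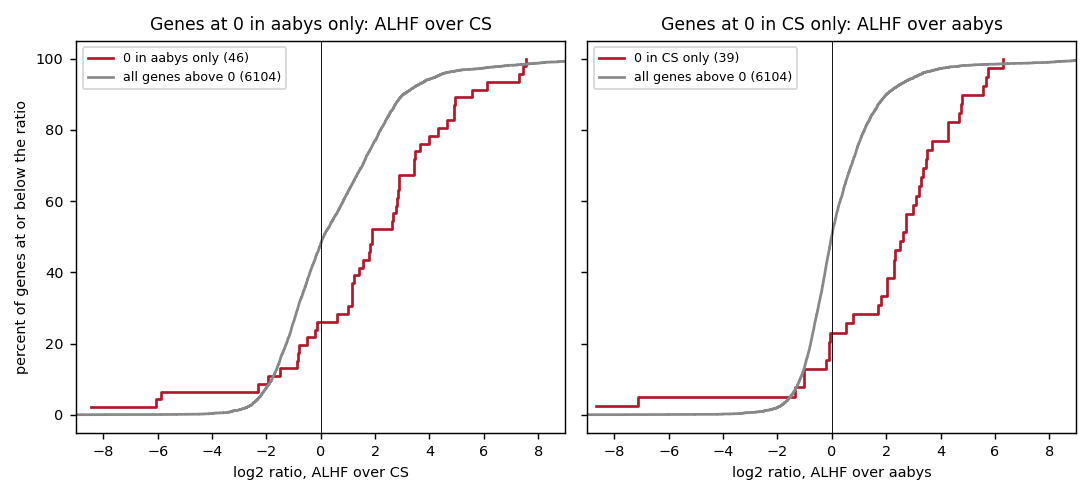
Cumulative percent of genes (vertical axis) by the log2 ratio of mean normalized counts (horizontal axis): left, ALHF over CS for the 46 genes at 0 in aabys only, and right, ALHF over aabys for the 39 genes at 0 in CS only, each with all 6104 genes above 0 in grey. The curves of the undetected genes lie to the right, with medians of 1.90 and 2.62, against 0.10 and -0.01 for all genes. A few genes lie far to the left. Part of the shift to the right is fixed by the choice of genes through ALHF. Among genes that reached the minimum count in CS (left) or aabys (right) itself, the medians were 1.16 and 2.04. All genes that did so had medians of -0.08 and -0.06.

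The 2 ALHF libraries differed more from each other in these genes than in the rest of the table. Among the 90 genes of the set above 0 in both ALHF libraries, the log2 ratio of ALHF replicate 1 to ALHF replicate 2 had an SD of 2.09, against 0.98 in 5930 other genes. Where the higher of the 2 ALHF counts lay between 30 and 300, the SD was 2.24 in 49 genes of the set and 0.96 in 2368 other genes, so the wider spread was there at like counts too. ALHF replicate 1 exceeded ALHF replicate 2 by at least 4-fold in normalized count, or stood against a 0, in 26 genes, and the reverse held in 22. A count of 0 in exactly 1 ALHF library occurred in 22 of the 117 genes, 11 for each library. Examples with more than 500 counts on 1 side were ALHF_11496.g6427 (685 and 0) and ALHF_11470.g6405 (560 and 0), and ALHF_05473.g3756 came near with 549 and 8. Smaller cases were ALHF_10458.g5891 with an RNA recognition motif, at 137 and 0 in ALHF, and ALHF_08212.g5178 with a KH domain, another RNA-binding fold, at 85 and 0. In ALHF_04087.g2641 the order was the reverse, with 0 and 181 counts in ALHF, 349 in aabys and 0 in CS. A 0 in at least 1 ALHF library with 30 counts or more elsewhere was found in 27 of the 5987 other genes above 0 (0.451%). The set also held 5 genes at 0 in both ALHF libraries, namely the 3 genes seen in CS alone and the 2 genes seen in aabys alone. Over all genes, 7 were at 0 in both ALHF libraries with at least 30 counts in aabys or CS, although all sequences were assembled from ALHF reads.

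**Figure D4:**
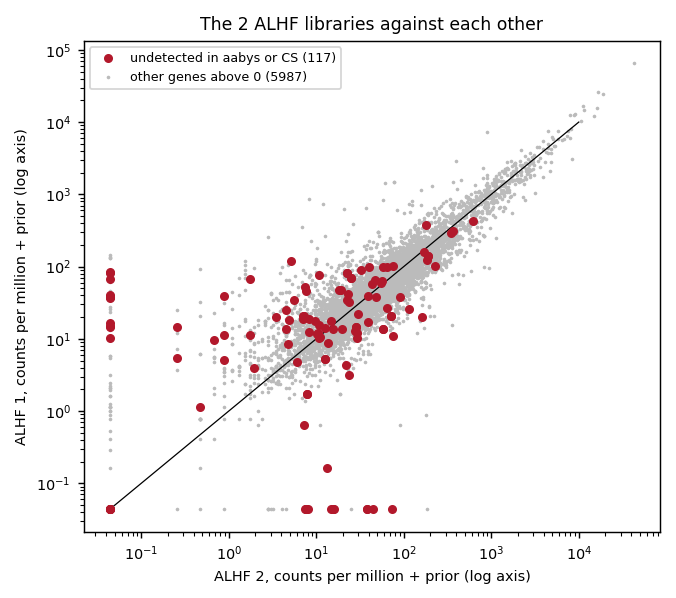
Normalized count (CPM plus a prior of 0.5 counts, log axes) of ALHF replicate 1 against ALHF replicate 2, for the 117 undetected genes and the 5987 other genes above 0, with the line of equality. The undetected genes scatter more widely around the line, with an SD of the log2 ratio of 2.09 against 0.98, and 22 of them lie at the low end of an axis, with a count of 0 in exactly 1 ALHF library.

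Reads of a strain can be assigned to a sequence similar to the one at 0, and the contig number is the only position that the gene names give. Each gene was therefore compared with genes up to 5 contig numbers away whose coding length was within 5%. Such a neighbour existed for 46 of the 117 genes (39.3%), against 25.7% of the other genes above 0, and 12 of the 46 had neighbours within the set only. A neighbour with at least 30 counts in the strain at 0 existed for 27 genes (23.1%). Among the other genes 24.7% had a neighbour with at least 30 counts in aabys and 23.9% had one with at least 30 in CS, so a share of 23.1% is near the background and is not particular to the set. These 27 genes formed 33 pairs, of which 10 have an annotation class for both genes, the same one in 3 pairs and different ones in 7. Contig sequences were not used here, so the similarity of the members of a pair was not tested.

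Of the 3 pairs with a shared class, the troponin pair also had the same named domain, whereas the named domains of the others differed. ALHF_11502.g6433, the spectrin repeat gene of 12402 nt, lies beside ALHF_11501.g6432 of 12465 nt, with a calponin homology domain, a domain that occurs together with spectrin repeats in actin-binding proteins. The neighbour had 1000 and 572 counts in ALHF, 3360 in aabys and 3455 in CS. The gene of the set took 75.5% and 59.9% of the raw counts of the pair in ALHF and none in the susceptible strains. The susceptible libraries were deeper, so the 3360 and 3455 raw counts of the neighbour do not compare directly with those in ALHF. On normalized counts the summed pair was lower in aabys and in CS than in either ALHF library. ALHF_04614.g3084, the kinase of 3501 nt, lies beside ALHF_04613.g3083, a kinase-like gene of 3510 nt with 160 and 517 counts in ALHF, 2018 in aabys and 1189 in CS. Its share of the pair was 82.4% and 22.7% in ALHF, so the 2 ALHF libraries differed in how the counts divided between the genes of the pair. ALHF_01627.g905, the troponin gene of 780 nt, had 7.0% and 9.77% of the counts shared with ALHF_01625.g903 of 777 nt, which itself had 55 counts in CS.

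Pairs without a named class included the gene with the highest count. ALHF_04601.g3073 of 549 nt lies beside ALHF_04600.g3072 of 567 nt, which had 784 and 4435 counts in ALHF, 26983 in aabys and 11402 in CS. The share of ALHF_04601.g3073 was 82.1% and 39.9% in the ALHF libraries, and the neighbour was counted in the strains at 0 at more than the count of ALHF_04601.g3073 in ALHF. ALHF_04509.g2995 and ALHF_04508.g2994, both 984 nt, had 338 and 0 counts in ALHF, 0 in aabys and 146 in CS for the first, and 187 and 258 in ALHF, 580 in aabys and 29 in CS for the second. ALHF replicate 2 was thus at 0 for the first of the pair, as was aabys, and counted for the second. ALHF_11334.g6313, with a histone deacetylase domain, had 309 and 0 counts in ALHF, 62 in aabys and 0 in CS, beside ALHF_11335.g6314 with 374 and 181 in ALHF, 797 in aabys and 1336 in CS.

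**Figure D5:**
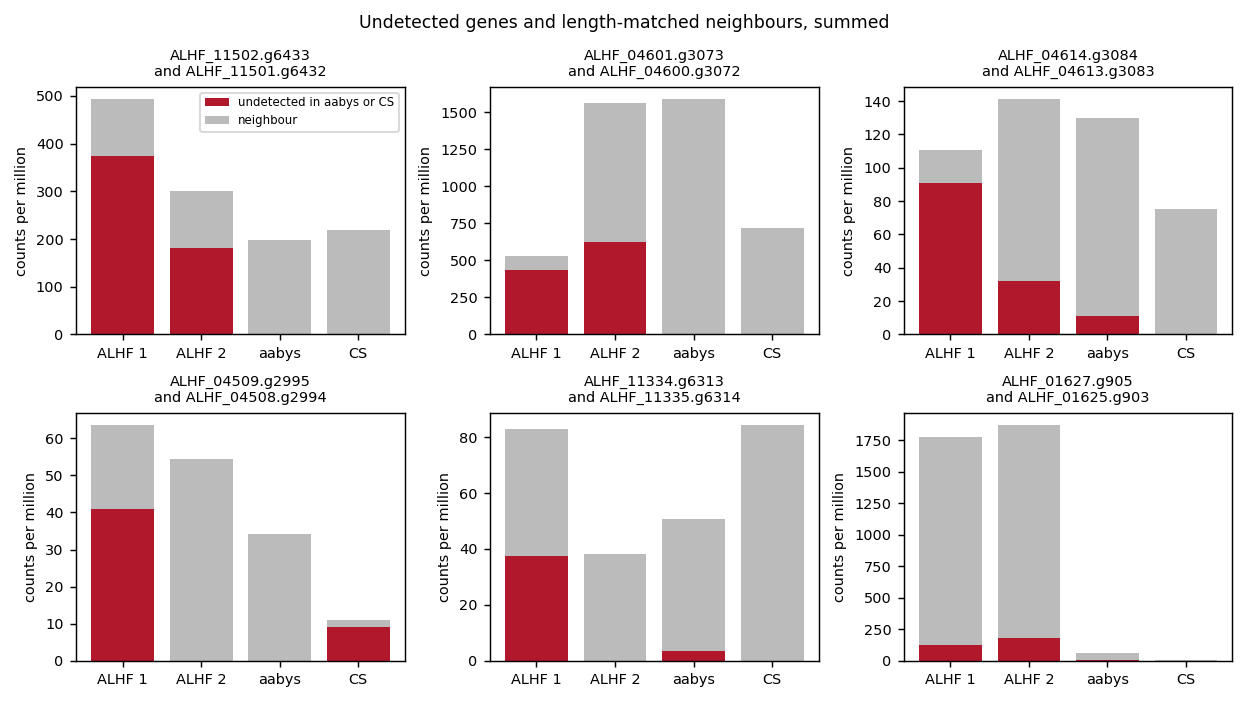
Normalized counts (CPM) in each library of 6 genes of the set (red) stacked on those of a neighbour of like length (grey), the pairs having been chosen after their values were seen. Where the gene of the set is at 0 the neighbour makes up the whole pair, which the choice of genes fixes. There ALHF_11501.g6432 had 3360 raw counts in aabys and 3455 in CS, in libraries deeper than those of ALHF. Both troponin genes were low in CS.

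Other pairs joined genes of different annotation classes. ALHF_02995.g1806, the kraken-like hydrolase of 1056 nt, has the length of its neighbour ALHF_02996.g1807 (1053 nt), a subunit of the vacuolar ATPase with 3391 and 1312 counts in ALHF, 5754 in aabys and 3201 in CS. ALHF_06840.g4487, with a lipid-binding CRAL/TRIO domain, had 374 and 36 counts in ALHF, 0 in aabys and 2 in CS, and shares its 708 nt with ALHF_06839.g4486, a Tudor domain gene with 600 counts in aabys. A like length and a near contig number alone therefore also brought together genes of different kinds.

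The set differed from other genes in assembly features. The choice did not use length or contig number directly, whereas identical counts are a trait of the counts that it used. Coding sequences of at least 5000 nt made up 17 of the 117 genes (14.5%), against 3.04% of the other genes above 0. These 17 include the 6 genes of the run of contigs 5011 to 5017, and both genes of some pairs with identical counts. The median length was 1215 nt in the set and 1311 nt in the other genes. Contig numbers of 10000 or above, a boundary chosen after the values were seen, were held by 56 genes (47.9%), against 14.5%. Sets of genes with identical counts in all 4 libraries held 16 genes (13.7%), against 7.68% of other genes, in 8 pairs of equal length. Besides those already given, these pairs were ALHF_10829.g6031 with ALHF_10831.g6033 (14 and 37 counts in ALHF, 164 in aabys, 0 in CS) and ALHF_11287.g6278 with ALHF_11291.g6282 (43 and 59 in ALHF, 7 in aabys, 0 in CS). With each pair counted once, 109 genes remained.

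By annotation, 86 of the 117 genes had an entry in the tables used, and 56 had a named domain, function class or Drosophila relative. The study's list of genes higher in ALHF held 83 of them and its list of lower genes 0, but those lists were chosen on the same libraries and are no independent evidence of direction. The annotation itself leans on those lists: of the 3692 annotated genes 1316 are in the list of higher genes, 1440 in that of lower genes and 936 in neither, against 3348 of 6104 genes above 0 in neither. Shares of annotated classes in the set are thus a description of a partial annotation. Of 131 genes classed as kinases and phosphatases 10 were in the set (7.63%, 4 at 0 in aabys only, 3 in CS only and 3 in both), against 2.33% of all 3692 annotated genes. Of 50 transport genes 5 were in the set (10%), of 12 mitochondrial carriers 3 (25%), and of 81 genes of cytoskeleton and muscle 5 (6.17%). The carriers ALHF_03742.g2359 and ALHF_04653.g3114 have identical counts, as do the phosphatases ALHF_11768.g6612 and ALHF_11769.g6613. These shares count both genes of each such pair. The transport class held, besides the 3 carriers, a synaphin, known for binding the vesicle fusion machinery of nerve terminals (ALHF_04491.g2978), and a gene with a TAP C-terminal domain of mRNA export factors (ALHF_09984.g5751). Of 171 genes classed as proteases 4 were in the set (2.34%), although by domain name only ALHF_11169.g6212 was a peptidase. The cytochrome P450s, glutathione S-transferases, carboxylesterases and UDP-glucosyltransferases, the families best known for breaking insecticides down, had 0 of 55 genes in the set.

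The other genes of these lists lay outside the set, and the direction of their calls is open to the same dependence on the study's lists. Over all genes tested DESeq2 called 8.09% higher and 2.11% lower in ALHF than in aabys, and 22.1% higher and 11.0% lower than in CS. Among 121 other kinases and phosphatases tested, edgeR's quasi-likelihood test called 0 against aabys and 0 against CS, and DESeq2 called 12 higher and 4 lower in ALHF than in aabys, and 36 higher and 19 lower than in CS. The median log2 ratio of these 121 genes was 0.17 over aabys and -0.02 over CS, close to that of all genes tested (-0.02 and 0.10). Of the 76 other cytoskeleton and muscle genes DESeq2 called 21 higher and 2 lower in ALHF than in aabys, and 37 higher and 6 lower than in CS, with medians of 0.92 and 1.81. Of the 44 other transport genes it called 4 higher and 1 lower than in aabys, and 11 higher and 5 lower than in CS, and of the 9 other mitochondrial carriers 2 higher and 0 lower than in aabys, and 4 higher and 0 lower than in CS. Of the 55 detoxification genes DESeq2 called 13 higher and 1 lower than in aabys, and 31 higher and 0 lower than in CS, and the quasi-likelihood test called 0. The 4 other IBR genes were each called higher by DESeq2 than in aabys and than in CS, with median log2 ratios of 2.76 and 3.71, although 2 of them have identical counts.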

How the data were processed

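The authors trimmed reads with Trimmomatic, assembled the pooled ALHF reads with Trinity and CAP3, predicted coding regions with Augustus and used RSEM, in a version not given in the sources used here, to map every strain to these ALHF sequences. The deposited values are headed FPKM, but the authors deposited whole numbers with a different sum in each library, so they were treated as rounded expected counts (estimated counts). edgeR 4.0.16 in R 4.3.3 fitted all 4 libraries together (TMM, filterByExpr, quasi-likelihood test, Benjamini-Hochberg threshold 0.05), after being tested on simulated counts. DESeq2 1.42.0, limma 3.58.1, other scalings, minimum counts, windows and the loss of 1 ALHF library were alternatives. Ratios of means used a prior of 0.5 counts. The quasi-likelihood test gives no standard error, so each SE was derived as the absolute log2 ratio over the square root of its F statistic. Genes to name were drawn from the 10 genes with the highest counts in each set, genes with primers, genes at 0 in an ALHF library, identical pairs, genes with a neighbour and those next to the limit, with examples by domain chosen after their values were seen. Members and lists were chosen with earlier results of these data known. Domain names came from the study's annotation, of which 1 table was held only in part. No other column of sample values was present, the columns being counts and length. Summaries used Python 3.11.15 with pandas 2.3.3. Replicates of ALHF are separate samples, and p-values rest on the spread between these 2.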

Additional observations from a re-analysis of the deposited data

How the results depend on the processing

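No paired analysis was possible because each susceptible strain has a single library. For all genes the quasi-likelihood test called 0 with TMM and without a filter. It called 32 for aabys and 1015 for CS with DESeq2 size factors, and 22 and 1654 with library size alone. DESeq2 called 619 and 2013, and limma 0 and 17. The set held 117 genes, and 67 when both ALHF libraries had to reach 30 counts; the other alternatives gave 93 to 159, and leaving out an ALHF library gave 97 to 107. The 27 genes with a neighbour counted in the strain at 0 became 13 and 42 within 1 and 10 contig numbers, 12 and 46 within 1% and 10% of the length, 7 with the same domain name at any length (chosen after seeing the data), and 20 to 26 without an ALHF library. The cause was not tested beyond the looser or tighter limits themselves. Library size alone put the median log2 ratio of all genes at -0.49 for CS, against 0.10 with TMM, and at -0.43 for aabys, against -0.01; relative to it the genes at 0 in aabys stayed at 1.78 (1.29 before that subtraction) and those at 0 in CS at 2.62. For the genes at 0 in aabys the median was 1.91 to 2.07 without an ALHF library, 1.16 with the minimum met in CS and 1.67 without the run of contigs 5011 to 5017, both chosen after seeing the data. With the minimum met in CS, DESeq2 called 6 genes higher, against 15 over all 46 genes. For those at 0 in CS the median was 1.49 to 2.59 without an ALHF library. The median lower bound of the fold was 113, 80.2 with library size alone and 89.2 to 92.3 without an ALHF library; of 42 named bounds, 4 were under 1 without ALHF replicate 1 and 2 were under 1 without ALHF replicate 2. Refits without an ALHF library leave no residual degrees of freedom and gave ratios only. Depth limits the zeros to 3 counts each.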
